A study of Mus musculus with 22 samples.

Results

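The collagen chain genes of the mouse were followed through 22 RNA sequencing libraries of the ear. Members were all rows whose symbol is Col, a number, the letter a and a number, with 5 further chains set aside that are not analysed here. The rule gave 36 of the 21110 genes in the files: 9 chains of fibrillar collagens, 9 of network-forming collagens, 4 of the microfibrillar collagen VI and 14 others. No expression value entered this choice. All mice had a C57BL/6 background and were either wild type (WT) or carried a conditional knockout of Socs3 specific to keratin 5 (cKO). Socs3 encodes an inhibitor of cytokine signalling, and keratin 5 is made by basal keratinocytes, so the deletion is not directed at the fibroblasts that make most dermal collagen. Mice were 2, 8 or 10 weeks old. Each of the 6 groups had 4 libraries except WT at 8 and at 10 weeks, which had 3 each. The labels name keratinocytes as the source but the ear as the tissue, and RNA was extracted from ear specimens. Whether each library stands for its own animal is not stated, so every p-value measures the spread between libraries, which may be technical in part.

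Collagens are secreted proteins in which chains wind around each other in a triple helix. Fibrillar collagens are cut outside the cell and assemble into the fibrils that give skin, tendon and cartilage their strength. Network collagens form sheets, such as the collagen IV of basement membranes, and collagen VI forms beaded filaments around cells. The remaining collagens decorate fibrils, sit in the cell membrane or join basement membranes to the tissue below. In skin the fibrillar chains are made mainly by dermal fibroblasts, and in the ear the chondrocytes of the auricular cartilage add chains of their own.

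Values are deposited FPKM, fragments mapped to a gene relative to its transcript length and to the library total. They are set per length, so that genes of different length can be compared. The libraries also differed in how genes of different GC content were represented, as described below. Rankings and ratios of chains carry that limit. The number of reads behind the values is unknown, so the precision of low values is unknown too. The libraries did not form 6 even groups. WT libraries at 8 and 10 weeks stood apart in receptor genes. Of 1199 olfactory and vomeronasal receptor genes 34.9% to 74.2% were above 0 in them, against 3.25% to 7.26% in the other libraries. Their median FPKM over tested genes was 2.34 to 7.10, which overlapped with the 5.05 to 9.39 of the other libraries. Among those, cKO replicate 1 was at 5.05 at 2 weeks and at 6.03 at 8 weeks. Socs3 itself was at 9.71 to 10.3 FPKM in WT and 1.25 to 12.6 in cKO libraries at 2 weeks. At 8 weeks it was at 0.604 to 1.36 in WT and 1.60 to 8.47 in cKO libraries, and at 10 weeks at 2.02 to 4.81 and 29.8 to 47.7, which goes against the label at both ages. The groups are therefore called by their labels throughout. Markers of fibroblasts, chondrocytes, basal keratinocytes, endothelium, muscle, fat, nerve sheath and macrophages were above 0 in every group, so the RNA was not that of keratinocytes alone. Of the chondrocyte markers, Matn1 was at 0 in all 2-week libraries.

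The upstream sequences of Col1a2, Col3a1 and Col8a1 are shown because these chains behaved differently in the same libraries: Col1a2 and Col3a1 fell at 2 weeks in cKO libraries to different extents, and Col8a1 rose. Each is the 250 bases before the RefSeq gene start on build GRCm38.p6, read 5′ to 3′ on the gene's strand. Col1a2 lies at chr6:4505368-4505617 on the plus strand, Col3a1 at chr1:45311288-45311537 on the plus strand and Col8a1 at chr16:57754738-57754987 on the minus strand. Capitals mark matches on either strand to the CCAAT motif, to the GGGCGG motif of GC boxes and to the TATAAA motif of TATA boxes.
Col1a2: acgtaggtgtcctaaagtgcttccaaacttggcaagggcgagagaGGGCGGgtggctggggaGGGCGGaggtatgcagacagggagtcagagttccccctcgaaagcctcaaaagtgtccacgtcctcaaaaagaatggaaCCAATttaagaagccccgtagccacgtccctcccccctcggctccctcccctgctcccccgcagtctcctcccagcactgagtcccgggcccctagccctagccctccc
Col3a1: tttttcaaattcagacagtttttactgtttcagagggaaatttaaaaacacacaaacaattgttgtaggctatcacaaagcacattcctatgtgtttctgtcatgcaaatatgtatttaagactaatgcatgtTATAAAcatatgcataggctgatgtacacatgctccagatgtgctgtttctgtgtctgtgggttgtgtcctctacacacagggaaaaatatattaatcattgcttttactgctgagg
Col8a1: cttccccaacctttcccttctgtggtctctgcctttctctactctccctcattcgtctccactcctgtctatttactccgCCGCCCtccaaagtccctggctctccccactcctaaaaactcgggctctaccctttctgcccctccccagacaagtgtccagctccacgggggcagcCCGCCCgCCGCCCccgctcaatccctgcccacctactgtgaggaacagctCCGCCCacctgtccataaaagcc
The Col1a2 window held 1 CCAAT and 2 GGGCGG, with 62% G or C. The Col3a1 window held 1 TATAAA and neither of the other motifs, with 35.2% G or C. The Col8a1 window held 4 GGGCGG, all as the reverse complement CCGCCC, with 60.8% G or C. Of 32851 RefSeq windows of this length, 33.8% held CCAAT, 32.7% GGGCGG and 12.4% TATAAA on either strand. Of the 29 collagen genes with a window, 9, 17 and 3 did. The motifs do not overlap in letters, and a match describes the letters of the window, not a bound site.

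Fibrillar chains dominated the RNA of the 36 members in every library. Col3a1, the chain of the fine fibrils of skin and vessels, had the highest mean over the 22 libraries at 2318 FPKM. Col1a2 and Col1a1, the partner chains of collagen I, the main fibril of dermis, followed at 1782 and 1140 FPKM. These 3 chains made up 67.2% to 88.9% of the summed FPKM of the 36 members, in which the chains set aside are not counted. Among network chains Col8a1, a chain of the short-chain collagen VIII of vessels, led with a mean of 128 FPKM, ahead of Col4a1 at 45.3 and Col4a2 at 38.8 FPKM, the ubiquitous chains of basement membranes. Among microfibrillar chains the means were 316 FPKM for Col6a1, 250 for Col6a2 and 86.9 for Col6a3. Among the others Col16a1, a chain that associates with fibrils, led with 65.9 FPKM, followed by the cartilage chain Col9a3 with 59.5 and the fibril-associated Col14a1 with 30.9 FPKM. Tests covered 33 of the 36 members, those with 1 FPKM or more in at least 3 libraries. Col4a3 and Col4a4, which with Col4a5 form the basement membrane of the kidney glomerulus, did not exceed 0.772 and 0.694 FPKM, and Col19a1 did not exceed 0.164 FPKM. Col24a1 passed only through WT libraries at 2 weeks, and Col25a1 would have failed without cKO libraries at 2 or at 10 weeks. The filter thus favoured a difference of these groups from others, and calls of both chains carry little weight.

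**Figure D1:**
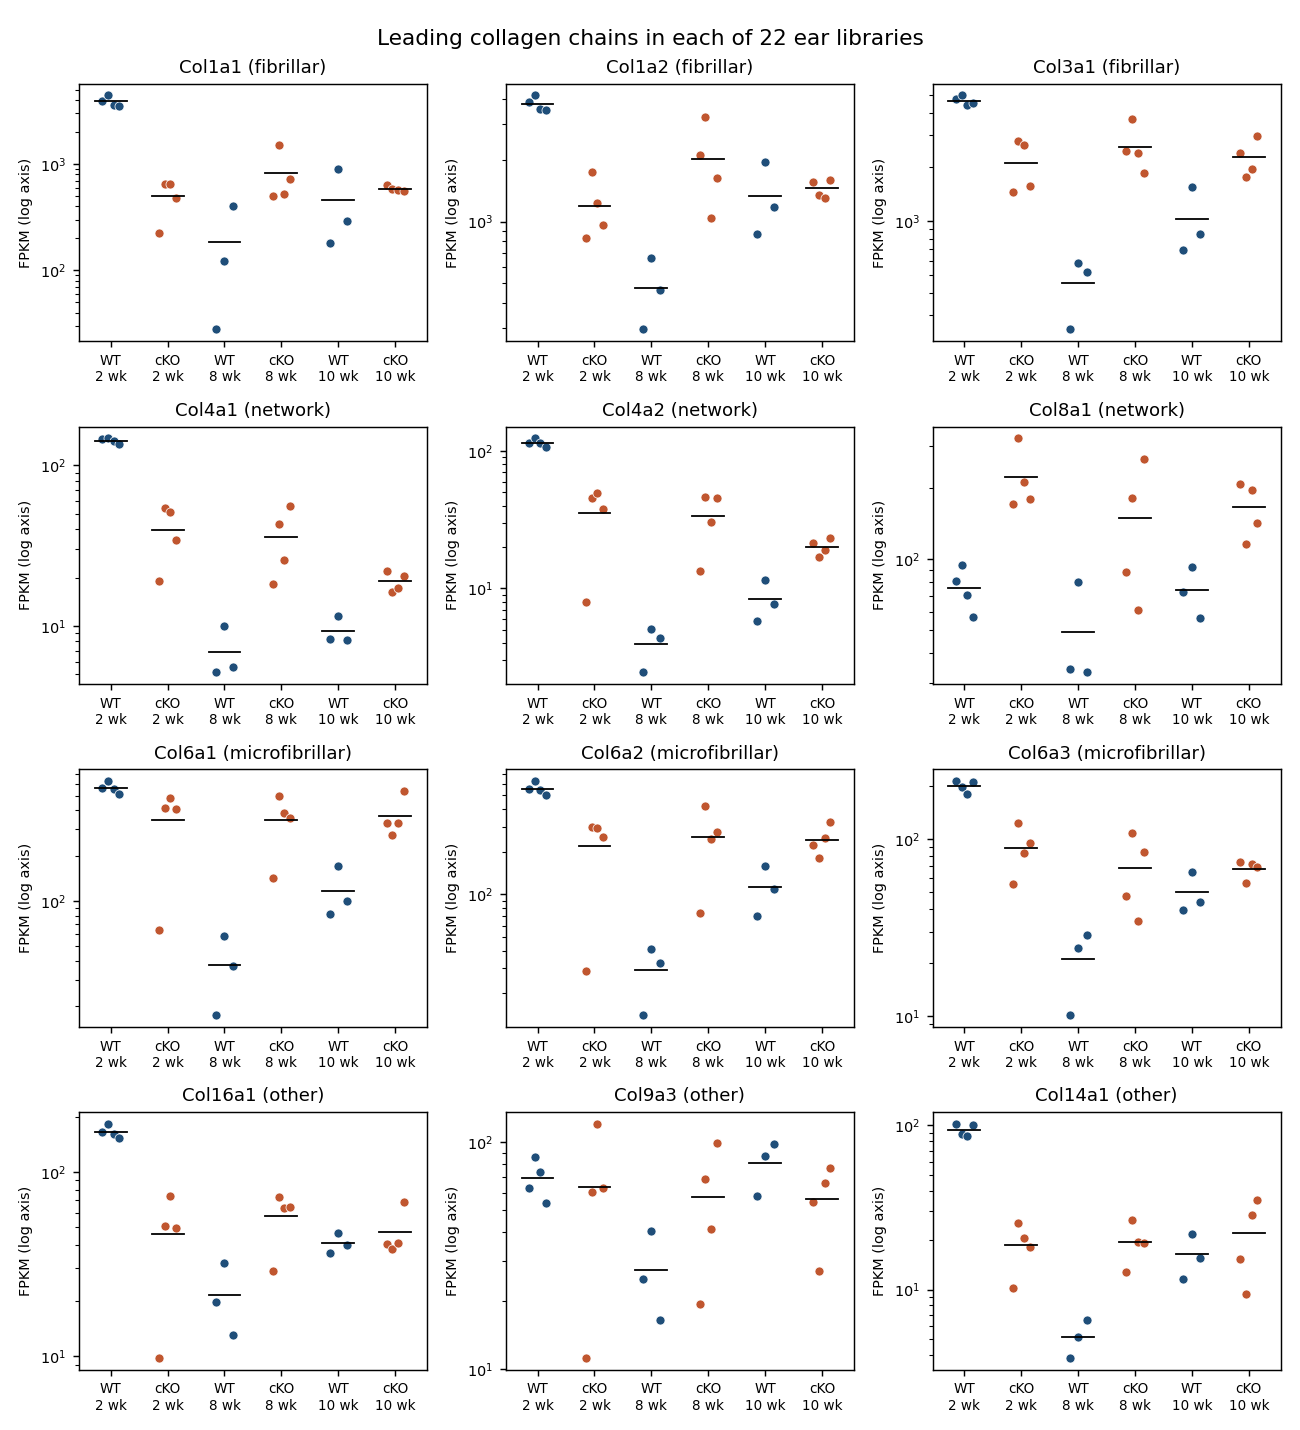
FPKM (log axis) of the 3 chains of each class with the highest mean, in each of the 22 libraries by labelled genotype and age. Points are libraries (blue WT, orange cKO) and lines are group means. WT libraries at 2 weeks lie above all others for 9 of the 12 chains. The exceptions are Col8a1, at 56.9 to 94.8 FPKM there and 171 to 323 in cKO libraries of that age, Col9a3, whose groups overlap, and Col6a1, where cKO replicate 4 at 10 weeks reaches 535 FPKM.

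The 36 collagen chains, without those set aside, took 3.18% to 3.53% of all FPKM in WT libraries at 2 weeks. The share was 0.448% to 1.45% in cKO libraries of that age. It was 0.0768%, 0.325% and 0.403% in the WT libraries at 8 weeks and 0.369%, 1.12% and 0.560% at 10 weeks. In cKO libraries it was 0.829% to 2.00% at 8 weeks and 0.922% to 1.16% at 10 weeks. No library of another group reached the share of the WT libraries at 2 weeks, and the lowest share was in WT replicate 1 at 8 weeks. A share also depends on the rest of the library. Ribosomal protein genes took 11.4% to 11.8% of all FPKM in WT libraries at 2 weeks. They took 15.4% to 28.8% in cKO libraries and 21.5% to 41.1% in the later WT libraries. WT replicate 1 at 8 weeks had the 41.1% and the highest total, 970785 FPKM. The part of this in the collagen share was not tested.

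The balance of the fibrillar chains differed between groups as well. Collagen I is mostly built from Col1a1 and Col1a2 chains together. The ratio of Col1a1 to Col1a2 in FPKM was 1.02, 1.07, 1.02 and 1.002 in WT libraries at 2 weeks and 0.269, 0.370, 0.530 and 0.504 in cKO libraries of the same age. At 8 weeks it was 0.0941, 0.183 and 0.887 in WT and 0.237, 0.463, 0.507 and 0.440 in cKO libraries. At 10 weeks it was 0.208, 0.458 and 0.246 in WT and 0.404, 0.430, 0.437 and 0.352 in cKO libraries. WT libraries at 2 weeks were all higher than every other library, WT replicate 3 at 8 weeks came closest, and the genotypes overlapped at 8 and 10 weeks. The ratio of Col3a1 to Col1a2 moved the other way at 2 weeks. It was 1.24, 1.20, 1.24 and 1.28 in WT and 1.75, 1.58, 2.14 and 1.63 in cKO libraries, so every cKO library was above every WT library. At 8 weeks it was 0.847, 0.888 and 1.13 in WT and 1.16, 1.12, 2.31 and 1.12 in cKO libraries, which overlapped. At 10 weeks it was 0.801, 0.792 and 0.716 in WT and 1.53, 1.30, 1.51 and 1.86 in cKO libraries, which did not. Transcripts of Col1a1, Col1a2 and Col3a1 hold 58.9%, 55.7% and 52.5% G or C, and as described next the libraries also differed in how genes of different GC content were represented.

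**Figure D2:**
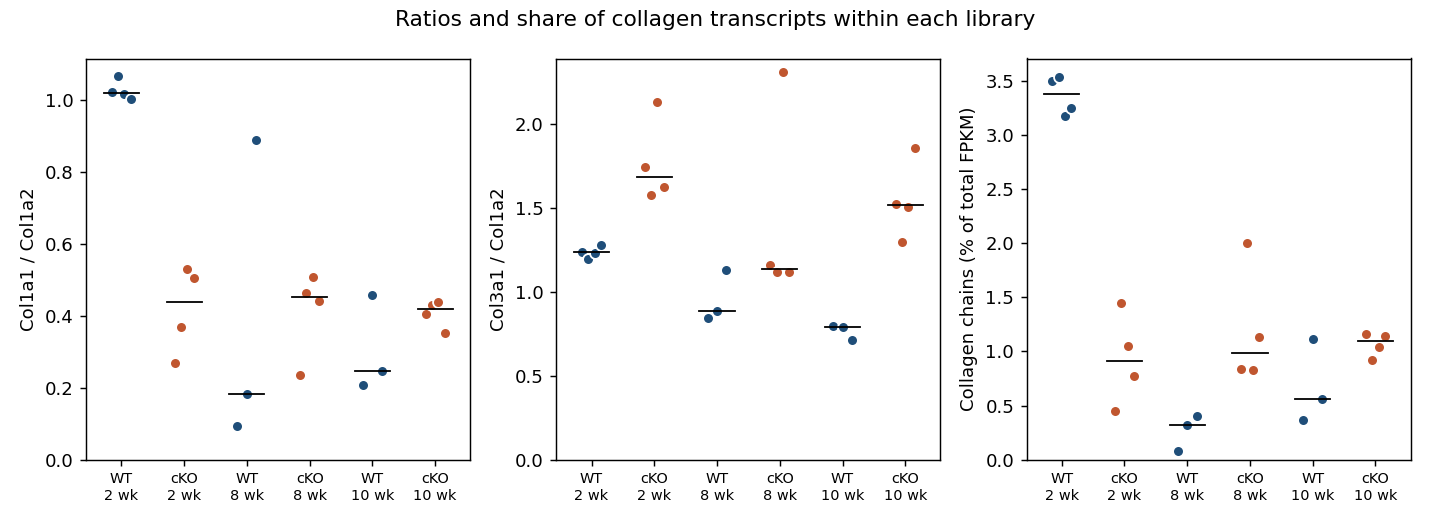
Ratio of Col1a1 to Col1a2, ratio of Col3a1 to Col1a2, and the percent of all FPKM in the 36 collagen chains, for each library. Points are blue for WT and orange for cKO, and lines are group medians. WT libraries at 2 weeks sit at 1.002 to 1.07 in the first panel and 3.18% to 3.53% in the last, above all other libraries.

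At 2 weeks most of the tested collagen chains were called lower in the libraries labelled cKO, most of them fibrillar, microfibrillar or among the other chains, while Col8a1 rose. Of the 20 calls 11 were kept once trends on GC content and transcript length were removed. Differences are cKO minus WT on the log2(FPKM + 1) scale. Each has a standard error (SE) and a limma p adjusted by Benjamini-Hochberg over all 14139 tested genes. The 1 added before the logarithm makes differences of low chains look smaller. Of the 33 tested chains 20 were called, 19 that fell and 1 that rose, with a median difference of -1.06. Of all tested genes 44.8% were called, 27.1% lower and 17.7% higher, with a median of -0.15. After median-of-ratios scaling 18 chains fell and 3 rose, against 26.1% and 23.4% of all genes. The 3 include Col25a1, which would have failed the filter without the cKO libraries of this age. By class 7 of 9 fibrillar, 2 of 7 network, 3 of 4 microfibrillar and 7 of 13 other chains fell, so the network share was close to the 27.1% of all genes. Because these are whole specimens, fewer cells of a type and less RNA per cell cannot be told apart.

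**Figure D3:**
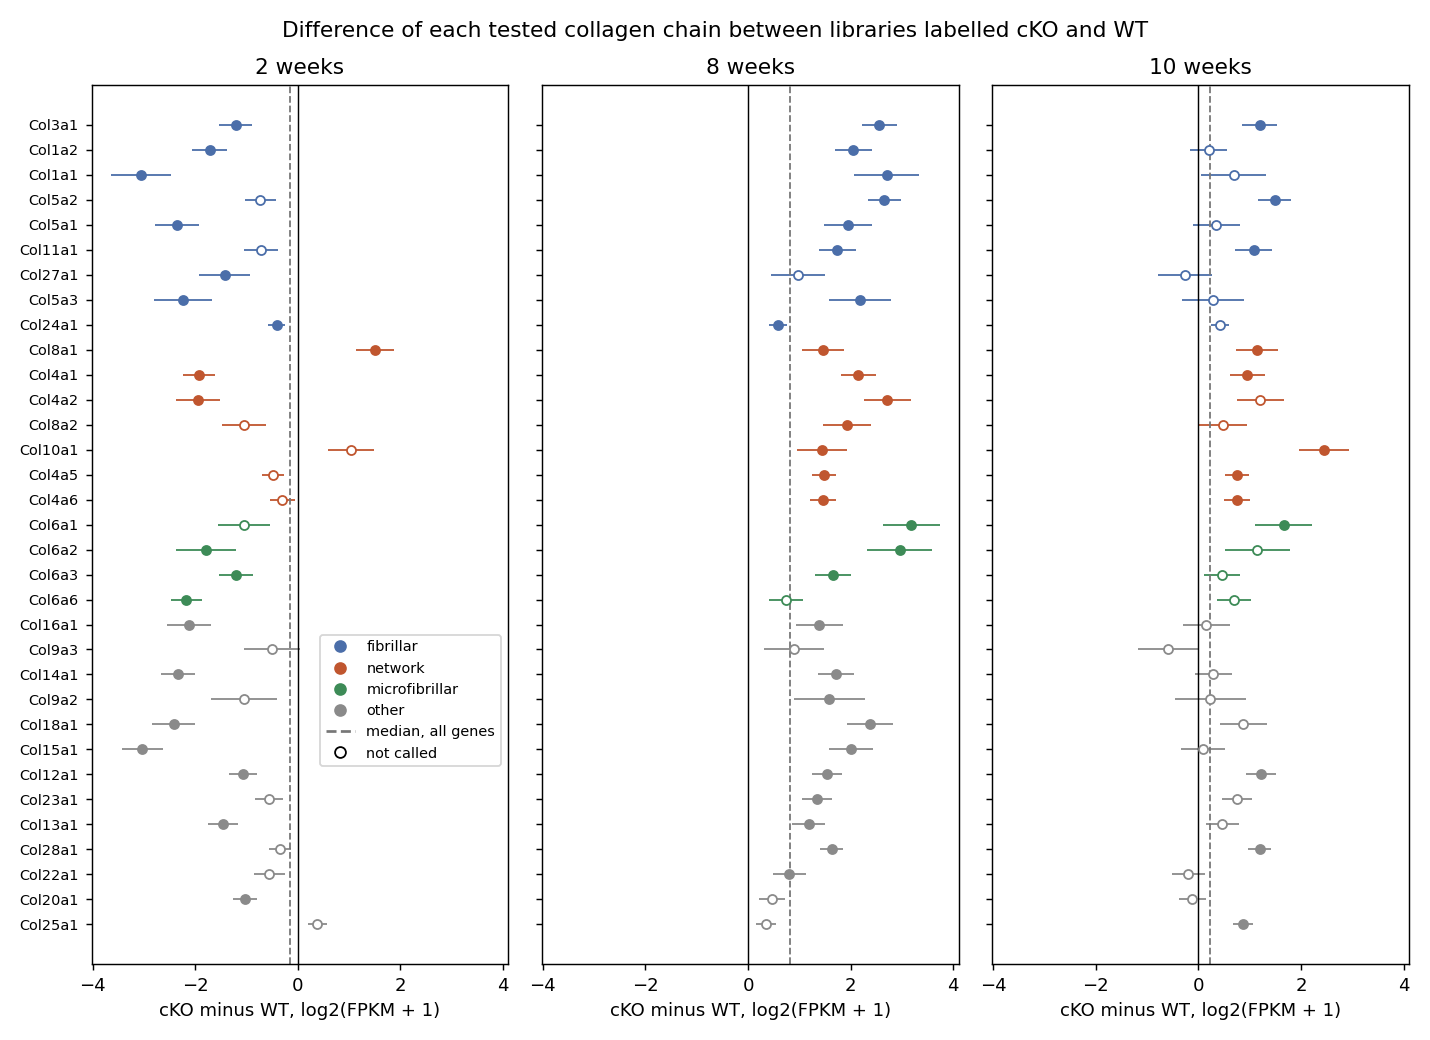
Difference between libraries labelled cKO and WT in log2(FPKM + 1) for the 33 tested chains at each age, with bars of 1 SE, filled symbols for adjusted p under 0.05, and the median of all tested genes as a dashed line. At 2 weeks 30 estimates are below 0, at 8 weeks all 33 are above 0, and at 10 weeks 29 are above 0 and 12 of them filled.

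Col1a1 showed the largest fall. It stood at 3932, 4435, 3614 and 3544 FPKM in WT and at 223, 648, 655 and 483 in cKO libraries, so each WT library was above each cKO library. The difference was -3.06 (SE 0.59, adjusted p = 0.000551). Col1a2 stood at 3846, 4163, 3557 and 3538 FPKM in WT and 828, 1752, 1236 and 958 in cKO libraries, again with no overlap. It fell by 1.72 on the log2 scale (SE 0.33, adjusted p = 0.000630). Col3a1 fell less, by 1.21 (SE 0.32, adjusted p = 0.00596), from 4764, 4996, 4393 and 4541 FPKM to 1446, 2772, 2640 and 1558. The groups were apart for all of these chains, and replicate 1 was the lowest cKO library in each. The other called fibrillar chains were Col5a1 (-2.35) and Col5a3 (-2.24), chains of collagen V, which helps to set the width of collagen I fibrils, Col27a1 (-1.43), and Col24a1 (-0.41), which passed the filter only through the higher group. Col5a2 stood at 176, 181, 163 and 166 FPKM in WT and 60.9, 116, 151 and 105 in cKO libraries. The groups did not overlap but the test was not passed (difference -0.73, adjusted p = 0.0524), and the same held for Col11a1 (-0.72, adjusted p = 0.0841).

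Among network chains the partners Col4a1 and Col4a2 fell together. Col4a1 was at 145, 147, 141 and 137 FPKM in WT and 18.9, 54.4, 51.1 and 34.4 in cKO libraries (difference -1.92, SE 0.31, adjusted p = 0.000120). Col4a2 was at 115, 124, 114 and 107 FPKM in WT and 8.01, 45.5, 49.5 and 38.0 in cKO libraries (difference -1.94, SE 0.43, adjusted p = 0.00166). Neither chain overlapped between the groups, and replicate 1 was the lowest cKO library of both. Col8a1 went against Col4a1 and Col4a2, the only other called chains of its class. It stood at 80.5, 94.8, 70.6 and 56.9 FPKM in WT and at 171, 323, 211 and 179 in cKO libraries, each above every WT library, and rose by 1.51 (SE 0.38, adjusted p = 0.00413). Col8a2, its partner in collagen VIII, had an estimate of -1.05 with overlapping groups (adjusted p = 0.0538). Col10a1, a chain of hypertrophic cartilage, was at 1.17, 1.50, 1.32 and 0.730 FPKM in WT and 1.01, 3.74, 4.86 and 5.89 in cKO libraries. Its replicate 1 lay within the WT range and the test was not passed (1.03, adjusted p = 0.0675), but the chain was called after scaling (1.08, adjusted p = 0.0341).

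Of collagen VI, the filaments that tie cells to the matrix, Col6a2 stood at 548, 627, 544 and 497 FPKM in WT and 28.9, 296, 291 and 253 in cKO libraries. It fell by 1.79 (SE 0.59, adjusted p = 0.0192), but without cKO replicate 1 the difference was -0.98 (adjusted p = 0.0918). Col6a3 stood at 212, 197, 180 and 208 FPKM in WT and 55.5, 123, 83.0 and 94.5 in cKO libraries (difference -1.21, SE 0.33, adjusted p = 0.00694). Col6a1, the third partner, was at 561, 627, 552 and 515 FPKM in WT and 64.6, 417, 484 and 409 in cKO libraries and did not pass (-1.05, adjusted p = 0.0968). All 3 chains had every cKO library below every WT library, and in each replicate 1 was the lowest cKO library. Col6a6 also fell, by 2.17, from a mean of 7.99 to 1.08 FPKM.

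Among the other chains the basement membrane proteoglycans Col15a1 and Col18a1, the second being the source of endostatin, fell most. Col15a1 was at 63.7, 70.2, 62.4 and 53.9 FPKM in WT and 1.80, 11.7, 9.64 and 8.49 in cKO libraries (difference -3.03, SE 0.40, adjusted p = 9.0e-06). Col18a1 was at 60.9, 65.8, 60.8 and 56.1 FPKM in WT and 2.67, 16.5, 16.3 and 15.1 in cKO libraries (difference -2.42, SE 0.42, adjusted p = 0.000215). The groups were far apart for both. Col16a1 stood at 164, 182, 161 and 152 FPKM in WT and 9.76, 50.7, 74.1 and 49.9 in cKO libraries (difference -2.12, SE 0.43, adjusted p = 0.000887). Col14a1 stood at 102, 88.1, 85.5 and 100.1 FPKM in WT and 10.2, 25.5, 20.4 and 18.1 in cKO libraries (difference -2.34, SE 0.33, adjusted p = 2.3e-05). Neither overlapped between the groups. The membrane chain Col13a1 (-1.45), the fibril-associated Col12a1 (-1.06) and Col20a1 (-1.03) were also called. Col9a3 was at 62.9, 86.2, 74.3 and 54.0 FPKM in WT and 11.2, 60.0, 120 and 63.1 in cKO libraries, which overlapped, and it did not pass (-0.50, adjusted p = 0.463).

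GC content moved with this difference. All tested genes were divided into 5 equal bins by the GC content of the longest reference transcript. The median difference at 2 weeks went from 0.39 in the bin of lowest GC content through 0.09, -0.21 and -0.50 to -0.80 in the bin of highest. Tested collagen chains had a median GC content of 55.2% against 49.9% for all tested genes, and 15 of the 33 were in the highest bin. Within the chains the medians were 0.38, -0.48, -1.21 and -1.92 from the second bin to the highest, each of the last 3 below that of all genes in the same bin. Across the 33 chains, which share their libraries, Pearson's r between GC content and the difference was -0.60. Genes of the highest bin lay above those of the lowest by 0.79 to 0.88 (log2) in WT libraries of this age, and below them by 1.87 in cKO replicate 1 and by 0.09 to 0.18 in the other cKO libraries. With trends on GC content and transcript length removed from each library, a choice made after seeing the data, 10 chains fell and 4 rose, and 11 of the 20 calls were kept in direction. Of all genes 19.2% then fell and 20.8% rose. By class 2 of 9 fibrillar, 2 of 7 network, 1 of 4 microfibrillar and 5 of 13 other chains were lower, and 3 network chains and 1 other chain were higher. That other chain was Col25a1, whose filter limit is given above. Col1a1 remained lower (-1.82, adjusted p = 0.00953), as did Col15a1 (-1.98, adjusted p = 6.9e-07), Col14a1 (-1.88, adjusted p = 0.000151) and Col18a1 (-1.03, adjusted p = 0.000608), and Col8a1 remained higher (1.67, adjusted p = 0.000325). The calls of Col1a2 (-0.73, adjusted p = 0.0749), Col3a1 (-0.51, adjusted p = 0.210), Col6a2 (-0.84, adjusted p = 0.105) and Col6a3 (-0.28, adjusted p = 0.348) were lost. Without cKO replicate 1 the number of called chains was 19 in place of 20.

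**Figure D4:**
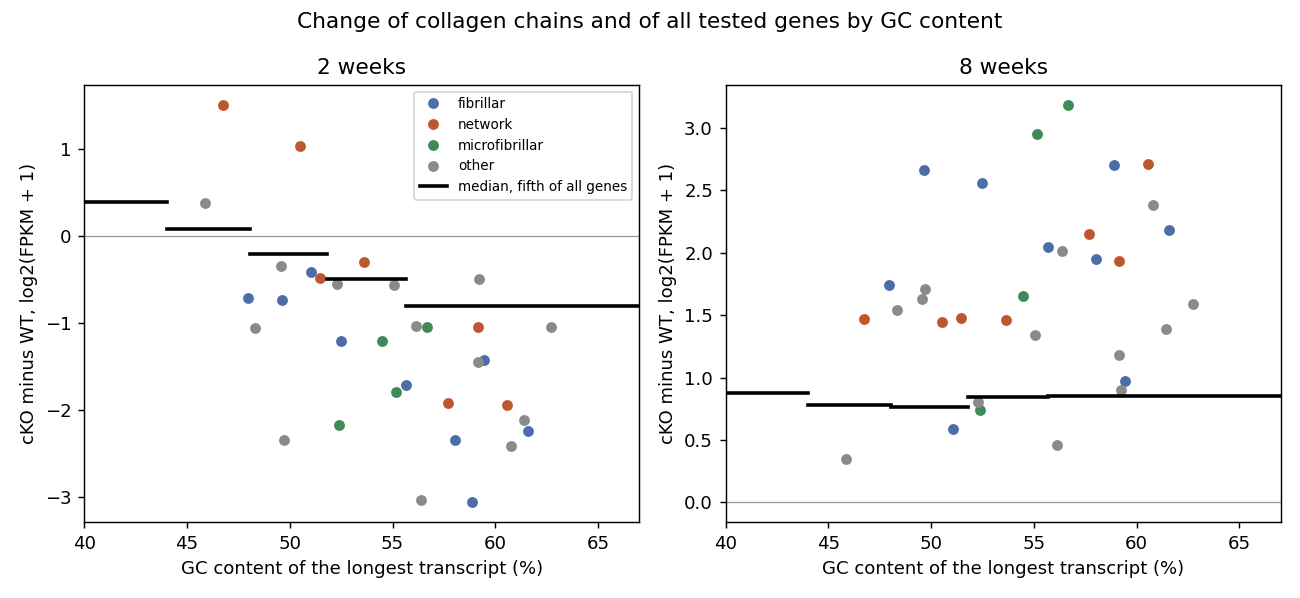
Difference between libraries labelled cKO and WT in log2(FPKM + 1) against the GC content of the longest transcript, for the 33 tested collagen chains (points, coloured by class) and as medians of 5 bins of all tested genes (black bars). At 2 weeks the bars step from 0.39 down to -0.80 and the chains of higher GC content lie lower; at 8 weeks the bars lie at 0.77 to 0.87.

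At 8 weeks the direction was the opposite. Comparisons of genotypes at 8 and 10 weeks use the WT libraries that stood apart in receptor genes. A difference of genotype cannot be told apart there from whatever set those libraries apart. Of the 33 chains 28 rose and none fell in libraries labelled cKO by limma, and at an unadjusted p under 0.05 the count was 29. The median difference was 1.63, and all estimates were above 0. The background was as one-sided: 65.8% of all tested genes were called, 62.2% higher and 3.58% lower, with a median of 0.82. After median-of-ratios scaling, which brings the median of all genes close to 0, 11 of the chains rose and none fell, with a median of 0.76, while 13.4% of all genes rose and 18.8% fell. The background also rose with transcript length. In 5 bins by length the median difference of all genes went from 0.28 in the shortest through 0.76, 0.92 and 0.98 to 0.99 in the longest. Tested collagen chains had a median length of 5930 bases against 3205 for all tested genes. The longest bin held 24 of the 33, with a median difference of 1.68. With GC and length trends removed 18 chains rose and 2 fell, against 20.3% and 19.8% of all genes. By class 8 of 9 fibrillar, 7 of 7 network, 3 of 4 microfibrillar and 10 of 13 other chains rose before scaling.

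The collagen VI chains Col6a1 and Col6a2 showed the largest rises. Col6a1 was at 17.4, 58.6 and 37.0 FPKM in WT and 143, 496, 387 and 355 in cKO libraries (difference 3.18, SE 0.55, adjusted p = 8.1e-05, and 2.07 with adjusted p = 0.00333 after scaling). Col6a2 was at 14.1, 41.0 and 32.9 FPKM in WT and 73.8, 420, 247 and 274 in cKO libraries (2.95, SE 0.63, adjusted p = 0.000584, and 1.85 with adjusted p = 0.0188 after scaling). The groups were apart for both, with WT replicate 1 the lowest. Col6a3 rose as well, from 10.1, 24.1 and 28.5 FPKM in WT to 47.5, 109, 34.6 and 84.3 in cKO libraries (1.65, SE 0.36, adjusted p = 0.000604), a call lost after scaling (0.56, adjusted p = 0.223).

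Among fibrillar chains Col3a1 stood at 250.3, 588 and 519 FPKM in WT and 2457, 3671, 2402 and 1839 in cKO libraries. It rose by 2.56 (SE 0.35, adjusted p = 7.2e-06) and by 1.43 after scaling (adjusted p = 0.00680). Col5a2, a chain of collagen V, stood at 9.27, 21.7 and 17.7 FPKM in WT and 92.4, 129, 93.9 and 96.8 in cKO libraries, and rose by 2.66 (SE 0.32, adjusted p = 2.5e-06) and by 1.57 after scaling (adjusted p = 0.000793). For both chains every cKO library exceeded every WT library. Col1a1 stood at 27.8, 121 and 408 FPKM in WT and 502, 1519, 527 and 722 in cKO libraries (2.70, SE 0.63, adjusted p = 0.00123). Without WT replicate 1 its difference was 1.72 (adjusted p = 0.0151) and without WT replicate 3 it was 3.63 (adjusted p = 0.000111). Col1a2 stood at 295, 663 and 459 FPKM in WT and 2120, 3277, 1038 and 1642 in cKO libraries (2.05, SE 0.36, adjusted p = 9.9e-05). The collagen I chains kept their direction after scaling but not their calls (1.58 for Col1a1, adjusted p = 0.0732, and 0.91 for Col1a2, adjusted p = 0.0619). Col27a1 was the fibrillar chain that did not pass (0.98, adjusted p = 0.109).

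Of the network chains Col4a2 was at 2.46, 5.04 and 4.36 FPKM in WT and 13.3, 46.4, 30.7 and 45.4 in cKO libraries (2.71, SE 0.46, adjusted p = 6.8e-05). Col4a1 was at 5.14, 9.93 and 5.58 FPKM in WT and 18.3, 43.2, 25.6 and 55.6 in cKO libraries (2.15, SE 0.34, adjusted p = 3.5e-05). The groups were apart, and both chains were called after scaling (1.74, adjusted p = 0.00282, and 1.11, adjusted p = 0.00303), as were Col4a5 (0.83) and Col4a6 (0.86), chains of epithelial basement membranes. Col8a1 was at 34.3, 80.3 and 33.3 FPKM in WT and 88.2, 181, 60.9 and 265 in cKO libraries, which overlapped through WT replicate 2, and its call (1.47, adjusted p = 0.00428) was lost after scaling (0.35, adjusted p = 0.450). Col10a1 was at 1.67, 1.72 and 0.879 FPKM in WT and 1.81, 4.75, 4.08 and 20.9 in cKO libraries (1.45, adjusted p = 0.0144). Replicate 4 stood far above the rest, and without it the difference was 0.86 (adjusted p = 0.0613). Leaving out WT replicate 3 also ended the call (1.27, adjusted p = 0.0682).

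Of the other chains Col18a1 was at 1.52, 4.18 and 3.89 FPKM in WT and 7.65, 27.0, 28.8 and 25.0 in cKO libraries (2.38, SE 0.45, adjusted p = 0.000202). Col15a1 was at 1.54, 3.52 and 2.27 FPKM in WT and 6.01, 22.2, 9.71 and 18.2 in cKO libraries (2.01, SE 0.43, adjusted p = 0.000550). Both had groups apart and were called after scaling (1.45, adjusted p = 0.0106, and 1.12, adjusted p = 0.0242). Col14a1 was at 3.83, 5.15 and 6.48 FPKM in WT and 12.7, 26.3, 19.5 and 19.1 in cKO libraries (1.71, adjusted p = 0.000465), which did not overlap, but its call was lost after scaling (0.70, adjusted p = 0.132). Col16a1 was at 19.6, 32.1 and 13.0 FPKM in WT and 29.1, 73.1, 63.8 and 64.8 in cKO libraries, with an overlap through replicate 1, and its call (1.39, adjusted p = 0.0133) was lost after scaling (0.30, adjusted p = 0.581). Without WT replicate 3 Col16a1 also lost its call (1.09, adjusted p = 0.0852). Col9a3 was at 25.0, 40.6 and 16.5 FPKM in WT and 19.3, 69.0, 41.4 and 99.1 in cKO libraries and again did not pass (0.90, adjusted p = 0.178).

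At 10 weeks fewer chains differed, and they were again higher in libraries labelled cKO. Of 33 chains 12 rose and none fell by limma, and 16 had an unadjusted p under 0.05. The median difference was 0.70, against 0.24 for all tested genes, of which 25.3% were called, 20.7% higher and 4.6% lower. After scaling 7 chains rose and none fell, with a median of 0.50, while 13.6% of all genes rose and 12.1% fell. The median difference of all genes went from -0.21 in the bin of shortest transcripts to 0.57 in the bin of longest. The longest bin held 24 of the chains, with a median of 0.72. By GC content the median of all genes went from 0.42 in the lowest bin to -0.0009 in the highest. With GC and length trends removed 5 chains rose and 2 fell, against 13.8% and 15.5% of all genes, and 4 of the 12 calls were kept. By class 3 of 9 fibrillar, 5 of 7 network, 1 of 4 microfibrillar and 3 of 13 other chains rose. The count was 5 without WT replicate 1, 5 without WT replicate 3, 6 without cKO replicate 1 and 8 without cKO replicate 3 or 4.

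Col10a1 showed the largest rise. It stood at 1.47, 1.50 and 0.944 FPKM in WT and 17.4, 6.07, 12.2 and 13.0 in cKO libraries, with no overlap. The difference was 2.44 (SE 0.49, adjusted p = 0.000986), and 2.20 after scaling (adjusted p = 0.00116). Col6a1 stood at 81.4, 171 and 99.8 FPKM in WT and 330.4, 275, 328 and 535 in cKO libraries and rose by 1.66 (SE 0.55, adjusted p = 0.0311). Leaving out any of 5 single libraries raised its adjusted p above 0.05, to at most 0.121. Col5a2 stood at 28.5, 49.5 and 27.5 FPKM in WT and 93.0, 63.3, 93.9 and 160 in cKO libraries and rose by 1.49 (SE 0.32, adjusted p = 0.00193), and by 1.19 after scaling (adjusted p = 0.00778). Every cKO library was above every WT library for these chains.

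Col3a1 rose by 1.19 (SE 0.35, adjusted p = 0.0152), from 692, 1555 and 849 FPKM in WT to 2390, 1758, 1959 and 2964 in cKO libraries. The groups were apart by a narrow margin through WT replicate 2, and the call was lost after scaling (0.89, adjusted p = 0.0880), without WT replicate 1 (0.95, adjusted p = 0.0942) and without WT replicate 3 (1.10, adjusted p = 0.0817). Col1a1 was at 180, 898 and 291 FPKM in WT and 633, 584, 568 and 561 in cKO libraries, and Col1a2 at 865, 1962 and 1185 FPKM in WT and 1565, 1356, 1300 and 1594 in cKO libraries. Both overlapped through WT replicate 2, and neither passed (adjusted p = 0.447 and 0.724). Col8a1 was at 72.5, 92.4 and 56.2 FPKM in WT and 208, 115, 196 and 142 in cKO libraries (1.14, adjusted p = 0.0448, and 0.84 with adjusted p = 0.0751 after scaling). Col4a1 was at 8.27, 11.6 and 8.21 FPKM in WT and 21.8, 16.3, 17.3 and 20.5 in cKO libraries (0.95, adjusted p = 0.0442, and 0.67 with adjusted p = 0.0633 after scaling). Both were apart between the groups, but 5 single libraries for Col8a1 and 6 for Col4a1 each ended the call when left out. Col4a2, at 5.84, 11.5 and 7.76 FPKM in WT and 21.4, 16.8, 19.01 and 23.3 in cKO libraries, narrowly missed the threshold (1.21, adjusted p = 0.0587).

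The remaining rises at 10 weeks were in Col28a1 (1.19, adjusted p = 0.000564), Col12a1 (1.22, adjusted p = 0.00447), Col25a1 (0.87), Col11a1 (1.08), Col4a5 (0.75) and Col4a6 (0.75). Col25a1 would have failed the filter without the cKO libraries of this age, where it is high. Its call carries little weight, also in the 12 rises and in the 7 after scaling. Col28a1, a chain found around nerves, rose at both later ages (1.63 at 8 weeks), and it was called at each of them also after scaling (1.19 and 1.02). Col6a2 was at 70.3, 158 and 108 FPKM in WT and 223, 179, 249 and 321 in cKO libraries, apart but not passing (1.15, adjusted p = 0.192), and Col6a3 was at 39.9, 65.4 and 44.2 in WT and 74.0, 56.4, 71.9 and 69.0 in cKO libraries (0.46, adjusted p = 0.363). Among the other chains Col18a1 was at 7.33, 9.91 and 7.09 FPKM in WT and 14.2, 14.1, 16.4 and 18.1 in cKO libraries, apart but not passing (0.88, adjusted p = 0.162). Col15a1, Col14a1 and Col16a1 overlapped between the groups (0.09, 0.29 and 0.16, adjusted p = 0.899, 0.585 and 0.835). Col9a3, at 57.9, 87.3 and 97.7 FPKM in WT and 54.2, 27.0, 66.0 and 76.7 in cKO libraries, had an estimate of -0.59 (adjusted p = 0.489).

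With age the chains took different courses in libraries labelled WT and cKO. The WT libraries at 8 and 10 weeks are those that stood apart in receptor genes. A change with age in WT cannot be told apart from whatever set them apart. In WT libraries 30 of 33 chains fell from 2 to 8 weeks and none rose, with a median change of -2.92. Col24a1, which passed the filter only through WT libraries at 2 weeks, is counted among the falls here and from 2 to 10 weeks. Of all genes 75% were called, 65.3% lower and 9.69% higher, with a median of -0.94. The largest falls were in Col1a1 (-5.10, SE 0.63, adjusted p = 1.1e-06), Col4a2 (-4.59, SE 0.46, adjusted p = 8.8e-08) and Col6a2 (-4.32, SE 0.63, adjusted p = 6.8e-06). Col8a1, Col10a1 and Col25a1 did not pass. From 2 to 10 weeks 27 chains fell and none rose in WT libraries, with a median of -2.01, against 43% of all genes called, 32.7% lower and 10.3% higher, and a median of -0.35. Here the largest falls were in Col4a1 (-3.81, SE 0.34, adjusted p = 4.0e-08), Col4a2 (-3.67, SE 0.46, adjusted p = 3.8e-06) and Col1a1 (-3.42, SE 0.63, adjusted p = 0.000311). After scaling 28 chains fell from 2 to 8 weeks, with 30.7% of all genes lower and 29.3% higher, and 27 from 2 to 10 weeks, with 21.2% lower and 19.5% higher. All of these were among the chains called before. With GC and length trends removed 22 chains fell and 3 rose from 2 to 8 weeks, with a median of -1.25, against 28% of all genes lower and 27.6% higher. From 2 to 10 weeks 21 then fell and 2 rose, with a median of -1.14, against 17.8% lower and 20.7% higher. Col20a1, another fibril-associated chain, changed direction from 2 to 8 weeks, from -1.47 (adjusted p = 3.8e-05) to 0.44 (adjusted p = 0.0417).

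From 8 to 10 weeks 12 chains rose in WT libraries and none fell, with a median of 0.98, while 31.4% of all genes were called, 30.8% higher and 0.587% lower, with a median of 0.55. Col6a2 (1.95, adjusted p = 0.0361), Col6a1 (1.70, adjusted p = 0.0360) and Col27a1 (1.66, adjusted p = 0.0341) changed most among the called chains. None of these calls was left after scaling. Leaving out WT replicate 1 at 8 weeks left 2, leaving out WT replicate 3 at 8 weeks left 4, and leaving out WT replicate 2 at 10 weeks left 0.

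In cKO libraries no collagen chain was called between any of the ages by limma. At an unadjusted p under 0.05 there were 2 chains from 2 to 8 weeks, 6 from 2 to 10 weeks and 2 from 8 to 10 weeks. The median changes were 0.09, 0.12 and -0.03. Few genes of any kind were called: 1.23% from 2 to 8 weeks (0.382% higher, 0.849% lower), 6.31% from 2 to 10 weeks (3.5% higher, 2.81% lower) and 3.06% from 8 to 10 weeks (1.97% higher, 1.08% lower). The largest estimates from 2 to 10 weeks were those of Col10a1 (1.49, SE 0.45, adjusted p = 0.0536), Col27a1 (1.10, adjusted p = 0.211) and Col4a1 (-0.93, SE 0.31, adjusted p = 0.0859). After scaling Col10a1 was called higher (1.42, adjusted p = 0.0353) and Col4a1, Col4a5 and Col28a1 lower at 10 than at 2 weeks. A missed threshold does not show that the levels stayed the same.

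**Figure D5:**
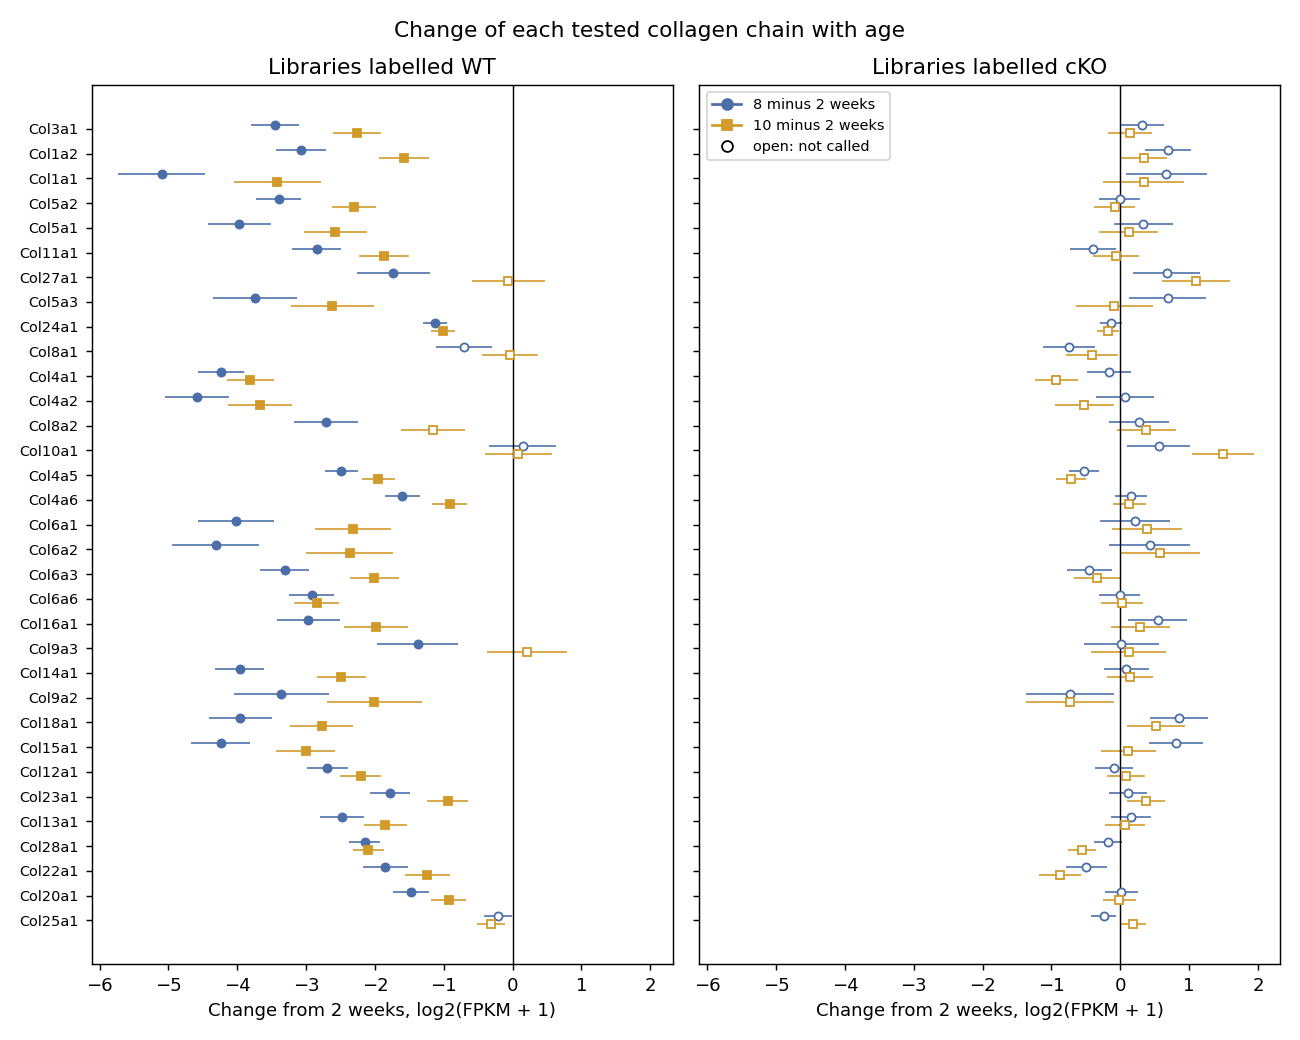
Change from 2 to 8 weeks (circles) and from 2 to 10 weeks (squares) in log2(FPKM + 1) for the 33 tested chains in libraries labelled WT (left) and cKO (right), with bars of 1 SE and filled symbols for adjusted p under 0.05. In WT libraries 30 and 27 chains are filled and lie below 0; in cKO libraries no symbol is filled.

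The genotype difference itself changed with age, with the same limit from the later WT libraries. Tested as an interaction, the difference was higher at 8 than at 2 weeks for 29 of 33 chains and lower for none, with a median of 2.86. Of all genes 63.9% passed, 57% higher and 6.93% lower, with a median of 0.96. All 9 fibrillar and all 4 microfibrillar chains passed, and 5 of 7 network and 11 of 13 other chains. The 9 include Col24a1, which passed the filter only through WT libraries at 2 weeks, so its call carries little weight. The largest values were those of Col1a1 (5.76, SE 0.86, adjusted p = 3.2e-05), Col15a1 (5.05, SE 0.58, adjusted p = 2.0e-06) and Col18a1 (4.80, SE 0.62, adjusted p = 6.6e-06). After scaling 26 chains were called in the same direction, with 24.8% of all genes higher and 24.8% lower. The median interaction of all genes rose with GC content, from 0.50 in the bin of lowest GC content to 1.73 in the bin of highest. With GC and length trends removed 19 chains were higher and 3 lower, with a median of 0.91, against 21.6% and 21.7% of all genes. Col20a1 again changed direction, from 1.49 (adjusted p = 0.00113) to -0.65 (adjusted p = 0.0352). Col8a1 was among the chains that did not pass. Its genotype difference was 1.51 at 2 and 1.47 at 8 weeks, so the change was -0.04 (limma adjusted p = 0.956), and -1.33 after scaling (adjusted p = 0.0230). Col25a1, whose filter limit is given above, did not pass either. Transcripts of Col8a1 and Col25a1 hold 46.8% and 45.9% G or C. With GC and length trends removed both were among the 3 lower chains. From 8 to 10 weeks the genotype difference of 2 chains became smaller and that of none larger, by limma, with 15 at an unadjusted p under 0.05. Of all genes 9.39% passed, 8.51% with a lower and 0.877% with a higher difference. The 2 chains were Col15a1 (-1.92, SE 0.61, adjusted p = 0.0495) and Col1a2 (-1.85, SE 0.51, adjusted p = 0.0312). Neither call was left after scaling (adjusted p = 0.195 and 0.327), and leaving out 1 library gave 0 to 9 calls. Comparisons that use the same WT or cKO libraries share their errors, so these counts are not independent of those above.

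Genes that make, modify and bind collagen were read from 6 lists. Their counts stand against 27.1% of all tested genes lower and 17.7% higher at 2 weeks, 62.2% higher at 8 weeks and 20.7% higher at 10 weeks. At 8 weeks their counts depended on scaling. In the order given here, 3, 2, 3, 1, 3 and 7 members were higher after it, and 1, 1, 0, 4, 0 and 0 lower. Of all genes 13.4% were then higher and 18.8% lower. With GC and length trends removed 5, 3, 3, 2, 3 and 4 members were lower at 2 weeks, and 1, 1, 4, 4, 1 and 0 higher. Of all genes 19.2% were then lower and 20.8% higher. At 8 weeks 7, 4, 6, 3, 3 and 9 were then higher and 1, 2, 0, 4, 1 and 0 lower, and at 10 weeks 4, 0, 4, 2, 2 and 5 higher and 0, 2, 0, 0, 1 and 1 lower. The shares of all genes were 20.3% higher and 19.8% lower at 8 weeks, and 13.8% and 15.5% at 10 weeks. Of the genes named for 8 weeks Sparc (0.95, adjusted p = 0.110) and Timp2 (0.59, adjusted p = 0.159) lost their calls with these trends removed. Of those named for 10 weeks Lox (1.23, adjusted p = 0.0545) and Prelp (1.07, adjusted p = 0.0602) did. Collagen chains are hydroxylated and folded in the endoplasmic reticulum before secretion. Of 19 tested hydroxylases and chaperones 10 fell and none rose at 2 weeks, 16 rose at 8 weeks and 4 at 10 weeks, with medians of -0.65, 1.47 and 0.38. Serpinh1, the collagen chaperone Hsp47, fell at 2 weeks from 391 ± 34.9 to 124 ± 39.5 FPKM (SD, n = 4; -1.71, adjusted p = 4.5e-05), as did the prolyl 3-hydroxylase Leprel2 (-1.97, adjusted p = 0.000787). At 8 weeks P4hb, a subunit of prolyl 4-hydroxylase, rose by 3.18 (adjusted p = 6.8e-06) and Sparc, a collagen-binding protein, by 2.08 (adjusted p = 0.000248). P4hb rose again at 10 weeks (1.46, adjusted p = 0.0159), as did Leprel1, another prolyl 3-hydroxylase (1.79, adjusted p = 0.00348). Of 12 procollagen proteinases and cross-linking enzymes 6 fell at 2 weeks, among them Bmp1, which removes the C-propeptide (-1.98, adjusted p = 0.000190), and Loxl1 (-2.15, adjusted p = 0.000390). In the same list 10 rose at 8 weeks and 2 at 10 weeks, with the cross-linking enzyme Lox at 2.85 (adjusted p = 2.3e-05) and 1.53 (adjusted p = 0.0134).

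Of 15 fibril-associated proteoglycans and glycoproteins 4 rose and 4 fell at 2 weeks, with a median of 0.17. Omd rose by 2.26 (adjusted p = 6.0e-06) while Tnxb, a matrix protein that supports collagen fibrils, fell by 2.37 (adjusted p = 0.000307). At 8 weeks 14 rose, led by Prelp (2.30, adjusted p = 0.000566) and Aspn (2.22, adjusted p = 2.6e-05), and at 10 weeks 8 rose, among them Prelp (1.37, adjusted p = 0.0457) and Kera (1.36, adjusted p = 0.00244). Of 11 collagen-degrading proteases and inhibitors 3 rose and 3 fell at 2 weeks. Mmp14, a membrane-bound collagenase, fell from 182 ± 6.72 to 37.6 ± 21.7 FPKM (SD, n = 4; -2.62, adjusted p = 0.000551), and the inhibitor Timp4 rose by 2.39 (adjusted p = 8.5e-06). At 8 weeks 6 rose, with the gelatinase Mmp2 at 1.91 (adjusted p = 5.2e-05) and Timp2 at 1.72 (adjusted p = 0.00168), and at 10 weeks 3 rose, with Mmp2 at 1.50 (adjusted p = 0.00157) and Timp3 at 1.21 (adjusted p = 0.0286).

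Of 11 collagen receptors 2 rose and 5 fell at 2 weeks, 10 rose at 8 weeks and 4 at 10 weeks. Itga11, an integrin subunit that binds collagen I, fell by 1.93 (adjusted p = 3.9e-05) and Ddr1, a receptor kinase, by 1.91 (adjusted p = 0.0123) at 2 weeks. At 8 weeks Ddr1 (3.03, adjusted p = 0.000394) and Itgb1, the shared integrin subunit (2.04, adjusted p = 4.7e-07), rose, and at 10 weeks Itgb1 (1.31, adjusted p = 0.000102) and Itga2 (1.25, adjusted p = 0.000151). Of 14 elastic fibre and basement membrane partners 5 fell at 2 weeks, 14 rose at 8 weeks and 6 at 10 weeks. Nid2 (-2.46, adjusted p = 9.7e-05) and Hspg2, perlecan (-2.32, adjusted p = 0.00134), fell at 2 weeks. At 8 weeks the largest rises were those of elastin, Eln (2.75, adjusted p = 0.00142), and the laminin chain Lamc1 (2.42, adjusted p = 7.4e-05), and at 10 weeks those of Lama2 (1.86, adjusted p = 0.000415) and Nid1 (1.70, adjusted p = 0.000329).

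Levels of cell type markers were read beside the chains, against the same shares of all tested genes: 17.7% higher and 27.1% lower at 2 weeks, 62.2% and 3.58% at 8 weeks, and 20.7% and 4.6% at 10 weeks. Of 12 fibroblast markers 2 rose and 1 fell at 2 weeks, where 19 collagen chains fell. The median difference of these markers was -0.33, and -0.07 with GC and length trends removed. Their summed level was 1755 to 1996 FPKM in WT and 2088 to 4679 in cKO libraries. Dcn made up a large part of this sum, so the sum does not describe the typical marker. Dcn, decorin, rose at 2 weeks from 838 ± 51.9 to 2107 ± 882 FPKM (SD, n = 4; 1.24, adjusted p = 0.00294), and Fbln1 fell by 1.55 (adjusted p = 0.00307). The fibroblast sum was 1774 to 2736 in WT and 3947 to 5595 in cKO libraries at 8 weeks, with 9 markers higher, and 2260 to 2937 and 3555 to 7618 at 10 weeks, with 3 higher. Of 9 tested chondrocyte markers 3 rose and 2 fell at 2 weeks, 6 rose and 2 fell at 8 weeks, and 2 rose and 2 fell at 10 weeks. The chondrocyte sum was 404 to 571 FPKM in WT and 590 to 1198 in cKO libraries at 2 weeks. At 8 weeks it was 1214 to 4663 in WT and 719 to 1996 in cKO libraries, although 6 markers were called higher there. At 10 weeks it was 986 to 1484 and 1032 to 1674, where Chad rose by 1.97 (adjusted p = 0.000953). Of 8 skeletal muscle markers 6 rose at 2 weeks, from a sum of 693 to 1054 FPKM in WT to 1703 to 3578 in cKO libraries, and 2 fell at 10 weeks. Endothelial markers were at 84.3 to 96.2 FPKM in sum in WT and 69.9 to 83.7 in cKO libraries at 2 weeks, and at 19.7 to 30.6 and 53.5 to 98.3 at 8 weeks, where 7 of 8 rose. At 8 weeks all 6 smooth muscle and pericyte markers, all 6 adipocyte markers, 7 of 8 basal keratinocyte and 5 of 6 Schwann cell markers rose too, at an age when 62.2% of all genes did, while 3 of 8 macrophage markers fell. After scaling no fibroblast marker was higher at 8 weeks and 1 was lower, 1 chondrocyte marker was higher and 2 were lower, and 6 macrophage markers were lower. Of all genes 13.4% were higher and 18.8% lower at 8 weeks after scaling. Of the macrophage markers 5 of 8 rose at 10 weeks and 1 at 2 weeks, and of 4 melanocyte markers 1 fell at 2 weeks, 1 rose and 1 fell at 8 weeks and 1 rose at 10 weeks. The part of these cell types in the changes of the chains was not tested.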

How the data were processed

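RNA of mouse ear specimens was sequenced from unstranded TruSeq v2 libraries with single-ended reads of 50 bases, per the labels' protocols. TopHat2 2.1.0, Cufflinks and build mm9 are named in the submitters' processing notes. The deposited values are FPKM per gene symbol, computed by the authors. The annotation used and any filter on reads are not stated. An exact 0 can be a failed estimate. Values were taken as log2(FPKM + 1). Genes at 1 FPKM or more in 3 or more of the 22 libraries, 14139 in number, were fitted as 6 groups with limma 3.58.1 in R 4.3.3 (empirical Bayes with an intensity trend), with 11 contrasts. Benjamini-Hochberg adjusted p under 0.05 was called. The tests were tried on simulated data. Transcript GC content and length came from a GRCm38 reference (longest transcript, 14001 tested genes matched), since mm9 was not at hand, and promoter sequences from RefSeq.

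The members, gene lists and settings were chosen with earlier results of these data known. Per-library values are given for the 3 chains of each class with the highest mean, the 3 largest called rises and falls between genotypes at each age, and called chains against their class, 16 in all. For age contrasts and interactions the 3 largest called changes are named, and for lists the 2 largest called members per age. Chains outside this rule were named after their values were seen. Settings tried were a pseudocount of 0.1, no filter, median-of-ratios scaling, removal of a loess trend (span 0.5) on length, only the compared groups, the replicate number as a block, leaving out, group by group, the library with the lowest median, and leaving out each library. Removal of GC and length trends together was added after seeing the data. Replicate numbers were checked by correlating deviations from group means. Every pair exceeded 0.1 among compared groups for cKO libraries at 2 and 8 weeks (r = 0.111 to 0.735), a likeness in the data that the labels do not explain. No 2 libraries held identical values. Tables and figures were made in Python 3.11.15 (pandas 2.3.3, numpy 2.4.6, matplotlib 3.10.9).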

Additional observations from a re-analysis of the deposited data

Results flagged for a closer look

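Groups of 4 libraries were examined for a library far from the other 3, which chance alone gives in about 1 of 20 groups, and 5 of 64 groups of named chains had one. At 2 weeks, cKO replicate 1 held 28.9 FPKM of Col6a2 and 2.67 FPKM of Col18a1, far below the other cKO libraries. At 8 weeks cKO replicate 4 held 20.9 FPKM of Col10a1 and cKO replicate 2 held 129 FPKM of Col5a2, each above the rest. At 10 weeks cKO replicate 4 held 68.7 FPKM of Col16a1, also above the rest. Without cKO replicate 4 at 8 weeks the call of Col10a1 at that age was lost, as it also was without WT replicate 3. Without cKO replicate 1 at 2 weeks the call of Col6a2 at that age was lost.

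By the interaction test, which uses the WT libraries that stood apart in receptor genes, the genotype difference changed with age. Between 2 and 8 weeks 29 chains passed, with Col1a1 at 5.76, Col15a1 at 5.05 and Col18a1 at 4.80, where each fell at 2 weeks and rose at 8 weeks in cKO libraries. Between 8 and 10 weeks 2 chains passed, Col15a1 at -1.92 and Col1a2 at -1.85.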

How the results depend on the processing

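None of the called genotype differences of the 16 named chains changed sign under the settings tried, while differences that were not called did so for Col9a3 at 2 and 8 weeks and for Col1a2, Col6a3, Col14a1, Col15a1 and Col16a1 at 10 weeks. Over all chains and contrasts, scaling and trend removal turned 3 calls into calls in the opposite direction: Col24a1 at 8 weeks with length trends removed (-0.40, adjusted p = 0.0454), and Col20a1 with GC and length trends removed in WT from 2 to 8 weeks and in the interaction between 2 and 8 weeks. At 8 weeks 28 chains were called higher. With scaling 11 were higher, and with length trends removed 18 were called, 15 higher and 3 lower. At 10 weeks 12 were higher, 7 with scaling. With length trends removed 5 were called, 3 higher and 2 lower, and with GC and length trends removed 7, of which 5 were higher and 2 lower. For WT at 10 against 8 weeks the 12 rises became 0 with scaling, 3 with only the compared groups and 23 with the replicate number as a block. With length trends removed, and with GC and length trends removed, 0 of the 12 were kept and 1 other chain, Col25a1, was lower. In cKO libraries 0 called from 2 to 10 weeks became 4 with scaling (1 higher, 3 lower), 5 with length trends removed (1 higher, 4 lower), 7 with GC and length trends removed (1 higher, 6 lower) and 6 lower without the libraries of lowest median. From 8 to 10 weeks the 0 became 1, 3 and 5, all lower, with length trends removed, GC and length trends removed and without those libraries. The 2 negative interactions from 8 to 10 weeks became 1 with no filter, 0 with scaling, 0 with only the compared groups and 13 without the libraries of lowest median. With length trends removed 0 of the 2 were kept and 1 other chain, Col25a1, was higher. The cause of these shifts was not tested.

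Leaving out 1 library gave 19 to 22 calls at 2 weeks, 24 to 32 at 8 weeks and 5 to 13 at 10 weeks. In WT libraries it gave 29 to 31 from 2 to 8, 24 to 28 from 2 to 10 and 0 to 17 from 8 to 10 weeks. In cKO libraries it gave 0 in each case from 2 to 8, 0 to 3 from 2 to 10 weeks (3 without replicate 1 at 2 weeks, 1 without replicate 4 at 2 weeks or replicate 2 at 10 weeks) and 0 to 1 from 8 to 10 weeks (1 without replicate 4 at 8 weeks). For the interactions it gave 28 to 30 between 2 and 8 and 0 to 9 between 8 and 10 weeks, with 9 without cKO replicate 1 at 8 weeks and 6 without WT replicate 2 at 8 weeks.

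With the replicate number as a block, in which a cKO library without a WT counterpart of its number adds nothing to a comparison, 19, 26 and 14 chains were called at 2, 8 and 10 weeks, and 1 interaction between 8 and 10 weeks. Between cKO libraries at 2 and 8 weeks, where the numbers went together, 0 chains were called with or without the block. The block ended the calls of Col6a2 at 2 weeks (adjusted p = 0.0527), Col8a1 (0.0607) and Col10a1 (0.0547) at 8 weeks and Col3a1 (0.0678) at 10 weeks. Read depth is unknown, so chains under about 1 FPKM cannot be ranked.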
